A study of Mus musculus with 12 samples.

Results

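The complement system of cultured mouse cardiomyocytes was examined through 8 genes chosen by name: the components C3, C4b, Cfb, C1ra and C1s1 and the regulators Serping1, Cd55 and Cd59a. Of these 8 genes, 7 had a row among the 22915 genes of the expression table. Cfb had no row in the table and was not analysed here.

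Primary cardiomyocytes were isolated from adult male C57/Bl6 mice aged 12 weeks and cultured for 24 h in normoxia with PBS, the solvent control, or with a recombinant cytokine at 25 ng/mL according to the sample descriptions (the study's methods state a slightly lower dose). The cytokines were LIF of the mouse (leukemia inhibitory factor, mLIF), oncostatin M of the mouse (mOSM) and hlOSM, a mouse oncostatin M engineered to carry the human AB loop. As background, mLIF signals through the LIF receptor, mOSM through the oncostatin M receptor, and hlOSM was made to engage both. Total RNA of 3 libraries per group, 12 in all, was sequenced, and each value below is a normalized count, which is not divided by gene length. Library totals ran from 2745748 to 2911891 on this scale, and how many counted reads these stand for is not known, since the study's methods state an average of sequenced reads per library and not the counted reads of each. The study's methods mention biological replicates in passing, but the sources do not state whether the libraries came from separate preparations of cells, and p-values therefore measure the spread between these samples, which may be technical. Replicate number held 1.70% of the variance within groups, where numbers without any effect would hold 25%, so that the fit used here, without a replicate term, counts residual degrees of freedom that hold almost no variance, and its p-values are too small. A fit with the replicate term called fewer genes in each comparison.

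Complement is a cascade of plasma proteins that is also made locally by many tissues. The classical route starts with the proteases C1r and C1s. Cutting of C4 by C1s leads to cleavage of C3, the component on which all routes converge. Factor B (Cfb) amplifies the cascade by the alternative route. Host cells are shielded by C1 inhibitor (Serping1) in the fluid phase and by membrane proteins, of which CD55 speeds the decay of the enzymes that cleave C3 and CD59 blocks assembly of the membrane attack complex; several complement genes are known as acute phase genes that respond to cytokines of the interleukin 6 family in liver.

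All 7 genes passed the filter for testing, which asked for 3 or more libraries with a value of 10 or more. C4b did so with 5 libraries, of which 0 were PBS libraries, and C1ra with 7 libraries. C1s1 reached 10 in 11 libraries, and C3, Serping1, Cd55 and Cd59a reached it in all 12.

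Levels of different genes were set side by side only as normalized counts per kb of exon. In PBS, Cd59a had the highest level of the 7 genes, 103 ± 19.1 per kb (SD, n = 3). C3 followed with 31.0 ± 0.979 per kb (SD, n = 3) and Cd55 with 16.1 ± 0.119 per kb (SD, n = 3). Serping1 was next with 12.9 ± 0.745 per kb (SD, n = 3). The proteases lay lower, C1s1 at 5.33 ± 0.923 and C1ra at 3.02 ± 0.671 per kb (SD, n = 3), and C4b was lowest at 1.35 ± 0.268 per kb (SD, n = 3). The ranges of neighbours in this order did not overlap in PBS. With mLIF and with mOSM the ranges of Serping1 and Cd55 overlapped, as did those of C1s1 and C1ra. With hlOSM, Serping1 stood above Cd55 without overlap, at 13.3 to 25.0 against 8.65 to 11.1 per kb, and its range overlapped that of C3 at 23.1 to 25.7 per kb. The ranges of C1ra and C1s1 also overlapped with hlOSM, where C1ra had the higher mean, 4.02 against 3.83 per kb. Cd59a remained first and C4b last by mean level in each of the 4 groups.

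Reads shared between genes limit some of these levels, since the authors counted a read only where its place and its gene were unique. Of the distinct stretches of 75 bases in transcripts of C1ra, 42.4% also occurred in transcripts of another gene, mostly its neighbour C1rb. The share was 24.8% for C1s1, of which 13.0% of all stretches were shared with C1s2, and 22.7% for C4b, all with C4a. It was 6.13% for Cd55 and 1.66% for Cd59a, and 0 for C3 and Serping1. The levels of C1ra, C1s1 and C4b are uncertain to that extent. Of the paralogs, C4a stood at 0 or 1 and Cd55b at 0 to 2 in each library, Cd59b lay between 9 and 24, and C1rb and C1s2 had no row in the table. Exons of an antisense gene covered 18.4% of the exonic bases of C1s1 and 2.10% of those of Cd55, and the sources do not state whether strand was used in counting. In the reference annotation, 79.5% of the exonic bases of Cfb, at chr17:34856374-34862518, lie within exons of Gm20547, a gene on the same strand that also overlaps C2.

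**Figure D1:**
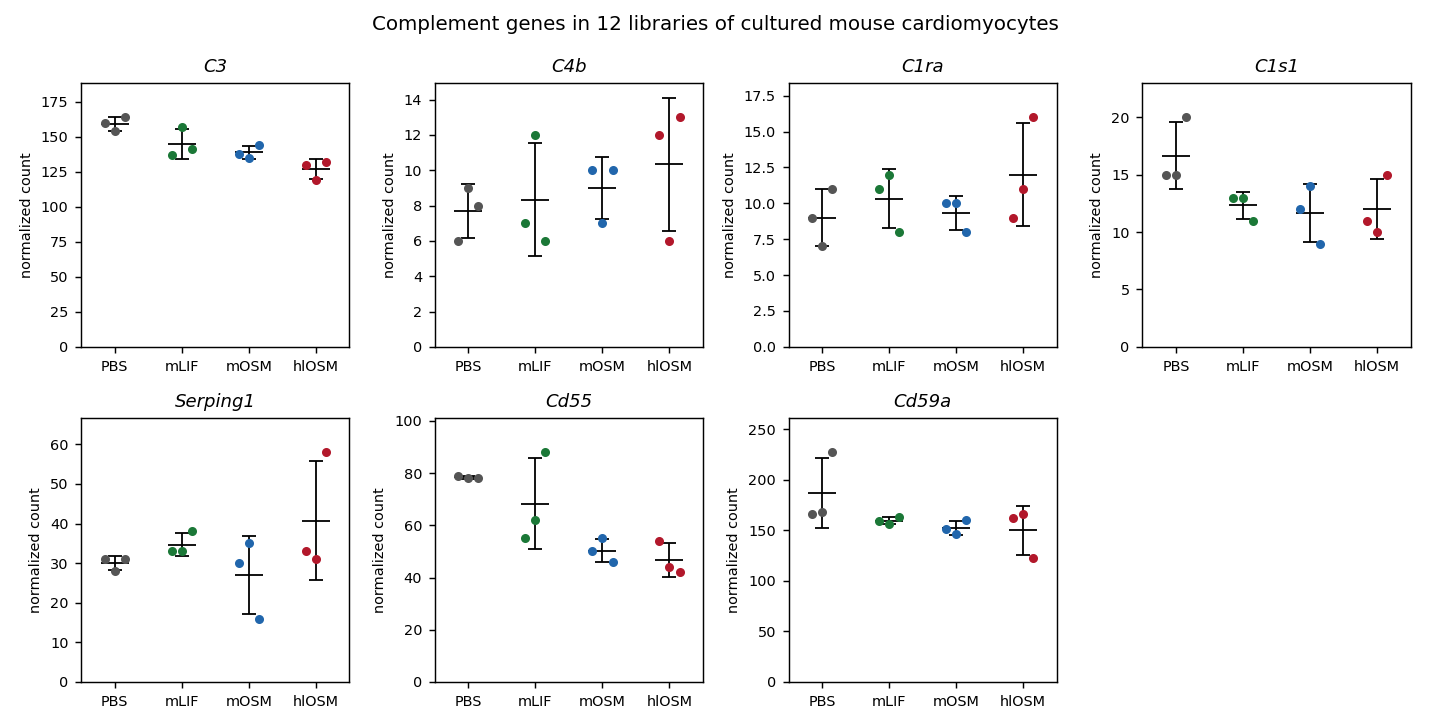
Normalized counts (y axis, linear from 0) of the 7 complement genes in PBS, mLIF, mOSM and hlOSM. Each point is a library, and the bar with whiskers is the mean ± SD of 3 libraries; the 3 mOSM and 3 hlOSM points of Cd55 lie below its PBS points at 78 to 79.

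With mLIF, 0 of the 7 genes passed the threshold of limma, an adjusted p under 0.05, and 0 had an unadjusted p under 0.05, while 9.91% of the 13184 genes tested were called. That share rests on 721 higher and 586 lower genes, which became 447 and 337 with a replicate block, 422 and 194 without the third PBS library and 273 and 229 without the third mLIF library. With mOSM, 1 of 7 was called, Cd55, against 31.2% of all genes tested, and it was lower, as were 15.8% of all genes tested. An unadjusted p under 0.05 in limma was reached with mOSM by 3 of 7, C3, Cd55 and Cd59a, beside 5416 of all 13184 genes tested. With hlOSM, 3 of 7 were called, C3, Cd55 and Cd59a, against 37.9% of all genes, and each of the 3 was lower, against 19.8% called lower among all genes. No member was called higher in any comparison. Of all 13184 genes, 721, 2031 and 2393 were called higher with mLIF, mOSM and hlOSM against PBS. Between cytokines, 797 were higher for mOSM against mLIF, 978 for hlOSM against mLIF and 0 for hlOSM against mOSM. Median log2 fold changes of the 7 genes were −0.14 (mLIF), −0.22 (mOSM) and −0.31 (hlOSM), and that of all genes tested lay between −0.01 and 0.00. These medians include C4b, at 0.07, 0.21 and 0.34, which passed the filter through cytokine libraries alone. The 3 comparisons share the PBS libraries.

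Comparisons between cytokines gave 1 call among the 7 genes. For hlOSM against mLIF, Cd55 was lower, 1 of 7 against 16.6% of all genes called and 9.22% called lower. In that comparison 2 of 7, C3 and Cd55, had an unadjusted p under 0.05 in limma, beside 3774 of all 13184 genes tested. For mOSM against mLIF, 0 of 7 passed limma's threshold against 11.8% of all genes. An unadjusted p under 0.05 was reached there by 1 of 7, Cd55, beside 3213 of all 13184 genes. For hlOSM against mOSM, an unadjusted p under 0.05 in limma was reached by 1 of 7, Serping1, beside 987 of all 13184 genes. The threshold was passed by 0 of 7, against 0.106% of all genes. The 14 genes behind that share, all lower, became 2 with a replicate block and 1 without the third mOSM library. The interaction is the step from mOSM to hlOSM minus the step from PBS to mLIF. For it, 0 of 7 had an unadjusted p under 0.05 in limma, beside 1521 of all 13184 genes. The interaction was called in 0 of 7 genes by limma against 0.167% of all genes. Its 2 higher and 20 lower genes over all became 14 and 128 without the third hlOSM library, 9 and 79 without the first PBS library, and 0 and 5 without the third mLIF library.

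C3 (ENSMUSG00000024164, chr17:57203970-57228136 on mm10, minus strand) encodes the central component. Its normalized counts were 160, 154 and 164 for PBS, 137, 157 and 141 for mLIF, then 138, 135 and 144 for mOSM, and for hlOSM 130, 119 and 132. The hlOSM libraries lay below all libraries of the other groups, the mOSM libraries lay below PBS, and the mLIF range reached into that of PBS. C3 fell with hlOSM, by a log2 fold change of −0.33 (SE 0.0807, limma adjusted p = 0.00283), and the call was kept under 21 alternatives but not with a minimum of 1.5-fold. With mOSM the log2 fold change was −0.20 (adjusted p = 0.0695) and with mLIF −0.14 (adjusted p = 0.295). Quantile normalization brought the mOSM value past the threshold, at −0.24 with an adjusted p of 0.0212. The difference between hlOSM and mOSM was −0.13 on the log2 scale with a 95% interval of −0.30 to 0.04 and was not called.

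C4b, which supplies the fourth component, was low in every library. Its normalized counts were 6, 9 and 8 for PBS, 7, 12 and 6 for mLIF, then 10, 7 and 10 for mOSM, and for hlOSM 12, 6 and 13. All groups overlapped. C4b passed the filter through cytokine libraries alone, so its tests against PBS are not used here, and it adds no call to the counts out of 7 above.

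The proteases of the C1 complex did not pass the threshold in any comparison. C1s1 had normalized counts of 15, 15 and 20 for PBS, 13, 13 and 11 for mLIF, then 12, 14 and 9 for mOSM, and for hlOSM 11, 10 and 15. The mLIF and mOSM libraries lay below PBS, and 1 hlOSM library, at 15, reached the PBS range. Its log2 fold changes were −0.40 (mLIF), −0.49 (mOSM) and −0.45 (hlOSM), at adjusted p of 0.325, 0.144 and 0.163. C1ra ranged from 7 to 16 over the 12 libraries, with overlap between all groups, and its log2 fold changes against PBS lay between 0.06 and 0.36.

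Serping1, the inhibitor of these proteases, had normalized counts of 31, 28 and 31 for PBS, 33, 33 and 38 for mLIF, then 30, 35 and 16 for mOSM, and for hlOSM 33, 31 and 58. The lowest and the highest value over all libraries, 16 and 58, both came from the third replicate of an OSM group, and the other libraries lay between 28 and 38. The mLIF libraries lay above PBS, while the mOSM and hlOSM libraries overlapped it. The log2 fold changes 0.20 (mLIF), −0.22 (mOSM) and 0.37 (hlOSM) had wide intervals, and none was called. Without the third mOSM library the mOSM value was 0.11, and without the third hlOSM library the hlOSM value was 0.09. Between hlOSM and mOSM it was 0.59 with an interval of 0.10 to 1.08, and limma's adjusted p was 0.540. That difference was 0.26 without the third mOSM library and 0.31 without the third hlOSM library.

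Cd55 (ENSMUSG00000026399, chr1:130439027-130462744, minus strand) encodes decay-accelerating factor. Its normalized counts were 79, 78 and 78 for PBS, 55, 62 and 88 for mLIF, then 50, 55 and 46 for mOSM, and for hlOSM 54, 44 and 42. Each mOSM and hlOSM library lay below each PBS library, and the mLIF libraries lay on both sides of PBS, with 1 at 88 above and 2 below. Cd55 fell by 0.63 on the log2 scale with mOSM (SE 0.148, limma adjusted p = 0.00216) and by 0.74 with hlOSM (adjusted p = 0.000382), to 0.645 and 0.597 times PBS. Both calls were kept under 21 alternatives and with a minimum of 1.5-fold, with values of −0.70 to −0.57 for mOSM and −0.85 to −0.67 for hlOSM. With mLIF the log2 fold change was −0.22 with an interval of −0.53 to 0.08 (adjusted p = 0.356), and it ran from −0.42 to −0.08 with a library left out. Against mLIF it was −0.52 with hlOSM (adjusted p = 0.0169) and −0.41 with mOSM (adjusted p = 0.0778). The call against mLIF rested on single libraries, as the adjusted p was 0.144 without the third mLIF library, where the value was −0.33, and 0.0582 and 0.0729 without the second or the third hlOSM library. Without the first mLIF library the value of mOSM against mLIF passed the threshold as well. Between hlOSM and mOSM, Cd55 differed by −0.11 with an interval of −0.42 to 0.19.

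Cd59a (ENSMUSG00000032679, chr2:104095801-104115354, plus strand) encodes a protectin anchored in the membrane. Its normalized counts were 166, 168 and 227 for PBS, 159, 156 and 163 for mLIF, then 151, 146 and 160 for mOSM, and for hlOSM 162, 166 and 122. The third PBS library stood far above the others and the third hlOSM library far below; the remaining 10 libraries lay between 146 and 168. Cd59a fell with hlOSM by 0.31 on the log2 scale (SE 0.113, limma adjusted p = 0.0318). Without the third PBS library the value was −0.17 (adjusted p = 0.246), without the third hlOSM library −0.17 (adjusted p = 0.233), and in a fit of the 6 libraries compared the adjusted p was 0.0640. With mOSM it was −0.28 (adjusted p = 0.0632), a value that passed the threshold with quantile normalization and without the first or second PBS library or the third hlOSM library, but was −0.13 (adjusted p = 0.404) without the third PBS library. With mLIF it was −0.21 (adjusted p = 0.237), and −0.07 without the third PBS library.

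**Figure D2:**
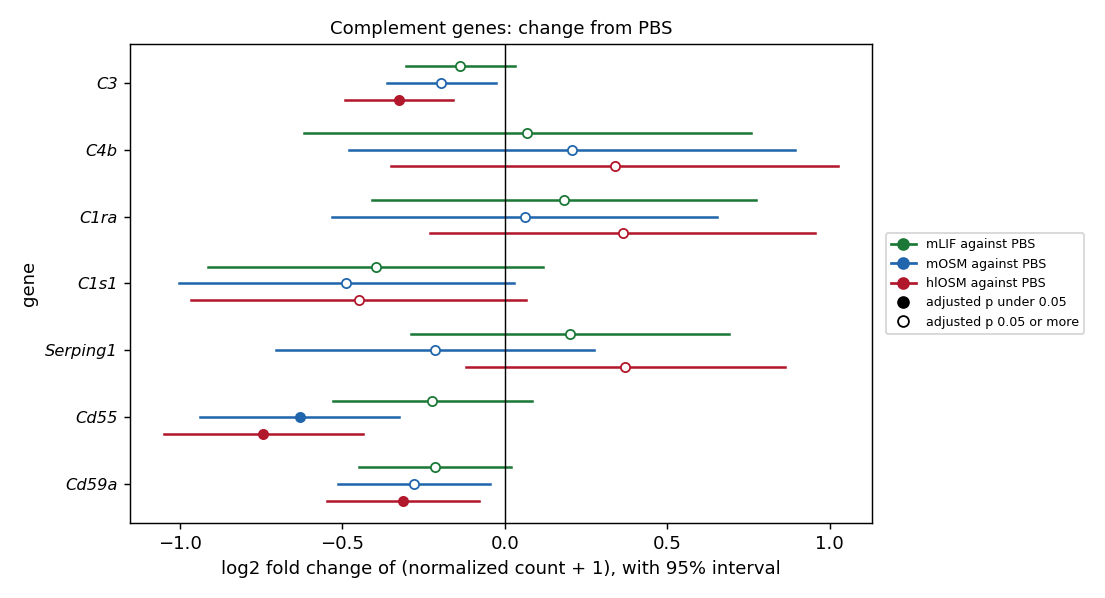
Log2 fold changes (x axis) of the 7 genes for each cytokine against PBS, with 95% intervals from limma. C4b is shown, but no conclusion rests on its values against PBS. Filled points have an adjusted p under 0.05: Cd55 with mOSM and hlOSM, and C3 and Cd59a with hlOSM.

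The overall F test across the cytokines was passed by Cd55 (adjusted p = 0.000900) and C3 (adjusted p = 0.0195), and for these the genes with the nearest pattern were sought among 8670 genes whose mean over libraries was 50 or more. Nearness was the root-mean-square difference of the 3 log2 fold changes against PBS, taken from group means of 12 libraries. Nearest to Cd55 were Peli2 at 0.00711, Pdgfd at 0.0185 and Wee1 at 0.0271. Pdgfd, for example, had log2 fold changes of −0.19, −0.62 and −0.75 with mLIF, mOSM and hlOSM. Nearest to C3 were Nlrp10 at 0.00832, Dyrk1b at 0.0104 and Man2b1 at 0.0105.

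Other complement genes were taken from 6 lists of the classical and lectin, alternative and terminal pathways, soluble and membrane regulators and receptors. Of 53 genes named, 40 had a row and 14 passed the filter. With mLIF, 1 of these 14 was called higher and 0 lower, where 9.91% of all genes tested were called. With mOSM 1 was higher and 2 lower, beside 31.2% of all genes called, and with hlOSM 2 were higher and 2 lower, beside 37.9%. None of the terminal pathway genes passed the filter, and C1qa, C1qb and C1qc, the subunits of C1q, stood at 2 to 9 in each library. Factor D (Cfd), the protease that cuts factor B, was listed at 0 in 11 libraries and at 1 in the other.

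Of the classical and lectin pathways, 3 of 13 genes with a row were tested. Masp1, a protease of the lectin route, had normalized counts of 133, 145 and 175 for PBS, 168, 147 and 157 for mLIF, then 122, 124 and 136 for mOSM, and for hlOSM 111, 113 and 91. The hlOSM libraries lay below all others. Masp1 fell with hlOSM by 0.52 on the log2 scale against PBS (SE 0.104, limma adjusted p = 0.000424) and by 0.58 against mLIF (adjusted p = 0.000320). Colec12, a membrane collectin, stood at 176, 188 and 219 for PBS, 153, 172 and 174 for mLIF, then 169, 147 and 155 for mOSM, and for hlOSM 145, 136 and 125. Its cytokine libraries lay below PBS, and its hlOSM libraries below all others. It fell by 0.30 with mOSM (adjusted p = 0.0138, and 0.105 without the third PBS library or 0.0672 without the second mOSM library) and by 0.52 with hlOSM (adjusted p = 0.000106). Against mLIF its hlOSM value was −0.30 (adjusted p = 0.0273, and 0.0587 with a replicate block). That call was also lost without the second or the third mLIF library (adjusted p = 0.106 and 0.105) and without the second or the third hlOSM library (adjusted p = 0.0589 and 0.113). C1rl ranged from 5 to 19 and was not called.

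Of the soluble regulators, 2 were tested. Clusterin (Clu), which binds terminal complexes, had normalized counts of 1070, 997 and 826 for PBS, 1295, 1200 and 1287 for mLIF, then 1166, 1273 and 1485 for mOSM, and for hlOSM 1292, 1354 and 1484. Every cytokine library lay above every PBS library. Clu rose on the log2 scale by 0.39 (mLIF), 0.44 (mOSM) and 0.52 (hlOSM) (limma adjusted p = 0.00454, 0.000298 and 3.64e-05). C1qbp lay between 307 and 346 and was not called.

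Among membrane regulators, Cd46 had normalized counts of 29, 30 and 23 for PBS, 29, 31 and 38 for mLIF, then 32, 33 and 38 for mOSM, and for hlOSM 42, 35 and 38. The mOSM and hlOSM libraries lay above PBS, and mLIF overlapped it. Cd46 rose with hlOSM by 0.48 on the log2 scale (limma adjusted p = 0.0241), but the adjusted p was 0.0666 with a replicate block and 0.120 without the third PBS library, 0.0944 without the first and 0.0529 without the third hlOSM library. Its direction was opposite to that of Cd55. Exons of A330023F24Rik on the other strand covered 14.2% of its exonic bases. Cr1l, a regulator related to Cd55 in function, lay between 253 and 331 and was not called, and neither was Cd59b, with a log2 fold change of −0.71 with mOSM (adjusted p = 0.0550).

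Of the receptors, 5 of 8 genes with a row were tested. Itgam, a subunit of complement receptor 3, stood at 8, 12 and 26 for PBS, 5, 8 and 4 for mLIF, then 11, 4 and 4 for mOSM, and for hlOSM 10, 11 and 10. The groups overlapped. Of its exonic bases, 68.7% lie within exons of Gm49368 on the same strand, so its level is uncertain. It was called lower with mOSM, at −1.13 on the log2 scale (limma adjusted p = 0.0325), and the adjusted p was 0.0622 with a replicate block and 0.0566 without the filter. With mLIF the value was −1.18 (adjusted p = 0.0589). Without the third PBS library, at 26, the mOSM value was −0.69 (adjusted p = 0.234), and without the second or the third mOSM library it was −0.92 (adjusted p = 0.128 and 0.117). C3ar1, Itgax, Itgb2 and Cd93 were not called with any cytokine, nor was Cfp of the alternative pathway.

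**Figure D3:**
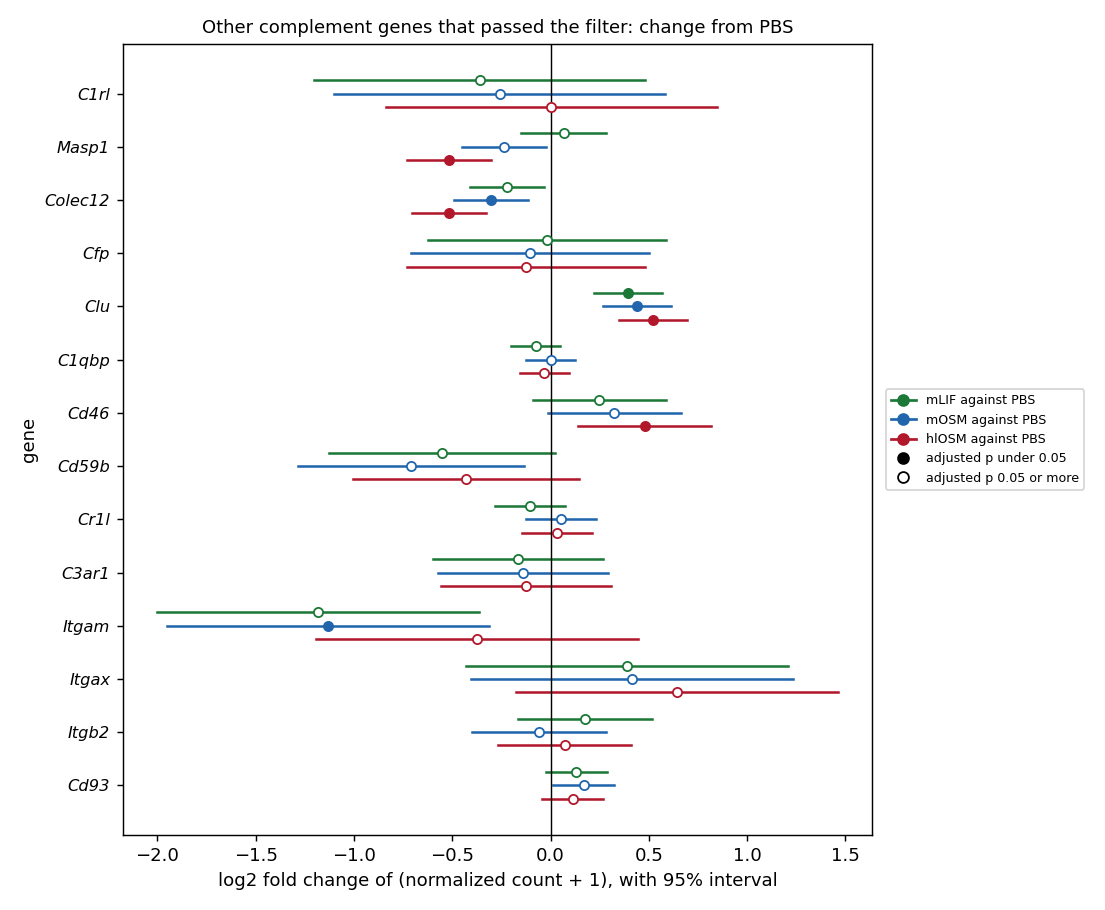
Log2 fold changes (x axis) of the 14 other complement genes that passed the filter, for each cytokine against PBS, with 95% intervals from limma. Filled points have an adjusted p under 0.05; Clu lies to the right of 0 with every cytokine, and Colec12 to the left with mOSM and hlOSM.

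Other plasma proteins of the acute phase gave a further reference, as 29 genes were named, 16 had a row and 4 passed the filter. Serpina3n, a protease inhibitor, had normalized counts of 44, 35 and 16 for PBS, 140, 132 and 188 for mLIF, then 265, 328 and 362 for mOSM, and for hlOSM 283, 301 and 458. Every cytokine library lay above PBS, and the mOSM and hlOSM libraries above mLIF. On the log2 scale it rose by 2.34 (mLIF), 3.39 (mOSM) and 3.49 (hlOSM) (limma adjusted p = 3.42e-06, 2.95e-10 and 1.26e-10). Lcn2 stood at 5 or less in PBS and passed the filter through the cytokine libraries alone, at 8 to 27, so its tests against PBS are not used here. Lbp, the lipopolysaccharide binding protein, rose by 1.28 with mOSM and 0.87 with hlOSM (adjusted p = 0.000291 and 0.00686), and ceruloplasmin (Cp) rose by 0.31 (mLIF), 0.42 (mOSM) and 0.57 (hlOSM), at adjusted p of 0.00226, 1.24e-05 and 1.32e-07. Of all 13184 genes tested, 721, 2031 and 2393 were called higher with mLIF, mOSM and hlOSM. Of the complement genes, Clu was called higher with each cytokine, and Cd46 with hlOSM, a call lost with a replicate block. C3, C1ra, C1s1 and Serping1 were not called higher with any cytokine, and C1ra, at 7 to 16, and C1s1, at 9 to 20, were low.

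Markers of cell types were summed as normalized counts in each library, since the values come from bulk RNA, in which fewer cells of a type and less RNA per cell cannot be told apart. The 10 cardiomyocyte markers, led by Ttn, summed to 49549, 49129 and 51093 for PBS, 44658, 42649 and 42774 for mLIF, then 35692, 34799 and 39057 for mOSM, and for hlOSM 35615, 38138 and 37096. Each cytokine library lay below PBS, and 6, 7 and 7 of the 10 markers were called lower with mLIF, mOSM and hlOSM, with 0 higher. Of all 13184 genes tested, 586, 2089 and 2609 were called lower in these comparisons, and 721, 2031 and 2393 higher. The labelled cell type was thus marked in all libraries, and none of these markers was at 0.

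The 8 mural cell markers, led by Cspg4, summed to 1042, 1084 and 1285 for PBS, 1002, 960 and 1013 for mLIF, then 769, 712 and 751 for mOSM, and for hlOSM 669, 683 and 648. The mOSM and hlOSM sums lay below all others. The third PBS library, which was also highest for Cd59a, had the highest sum, as it did for cardiomyocyte markers, at 51093. Within PBS it was also highest for fibroblast markers (2613) and macrophage and leukocyte markers (409), and lowest for endothelial (1339) and mesothelial markers (11). Of 7 mural markers tested, 0 were called with mLIF by limma, where 9.91% of all genes were called. With mLIF, 3 had an unadjusted p under 0.05 in limma, beside 3383 of all 13184 genes. With mOSM 6 were lower beside 15.8% of all genes, and with hlOSM 7 beside 19.8%. The mOSM count includes Myh11, which reached 10 in 0 mOSM libraries, and Cnn1 was at 0 in some libraries.

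The 10 endothelial markers, led by Kdr, summed to 1371, 1411 and 1339 for PBS, 1399, 1362 and 1437 for mLIF, then 1729, 1809 and 2007 for mOSM, and for hlOSM 1868, 1762 and 1838. These sums were higher with mOSM and hlOSM than in every PBS and mLIF library, with 7 and 8 of 10 markers called higher and 0 lower, beside 2031 and 2393 of all 13184 genes called higher. With mLIF, 1 endothelial marker was lower and 0 higher, beside 586 lower and 721 higher of all 13184 genes.

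The 10 fibroblast markers, led by Col3a1, summed to 2378, 2370 and 2613 for PBS, 2269, 2331 and 2178 for mLIF, then 2518, 2525 and 2945 for mOSM, and for hlOSM 2559, 2366 and 2607. The mLIF sums lay below PBS, and the mOSM and hlOSM sums overlapped PBS. Without Col3a1 the mean sums were 2055 (PBS), 1903 (mLIF), 1813 (mOSM) and 1687 (hlOSM). Called fibroblast markers went both ways, 2 higher and 4 lower with mOSM and 3 higher and 6 lower with hlOSM, and 1 was lower with mLIF. Among all 13184 genes, 2031 were higher and 2089 lower with mOSM, 2393 and 2609 with hlOSM, and 721 and 586 with mLIF. The lower counts include Dpt, which reached 10 in 0 mOSM and 0 hlOSM libraries. No endothelial or fibroblast marker was at 0.

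Macrophage and leukocyte markers, 10 of 12 with a row and led by Lyz2, summed to 385, 390 and 409 for PBS, 379, 368 and 401 for mLIF, then 418, 476 and 441 for mOSM, and for hlOSM 428, 381 and 456. The mOSM sums lay above PBS and the others overlapped it. Cd68 rose from a mean of 53.7 in PBS to 125 with mOSM, by more than the mean sum, 395 and 445. The other markers together thus had a lower mean with mOSM than in PBS. Of 7 tested, Cd68 was higher with each cytokine, beside 721, 2031 and 2393 of all 13184 genes with mLIF, mOSM and hlOSM, and 2 were lower with hlOSM beside 19.8% of all genes. Fcgr1 and Cd79a were at 0 in some libraries, and S100a8 and Cd3e had no row. The 6 mesothelial markers, led by Wt1, summed to 26, 19 and 11 for PBS, 19, 32 and 25 for mLIF, then 17, 18 and 35 for mOSM, and for hlOSM 14, 12 and 24; none passed the filter, and Krt19, Msln and Upk3b were at 0 in some libraries. The part of these cell types in the changes of Cd55, C3, Cd59a and the other complement genes was not tested.

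Promoters, from 250 bases before to 50 after the start of the transcript, were found in the RefSeq table (GRCm38.p6) for 5 of the 8 genes, C3, C1ra, C1s1, Cd55 and Cd59a. The sequences of the 3 genes that were lower with hlOSM are shown, 5′ to 3′ on the strand of the gene, with capitals for matches to any of 4 motifs searched on both strands: TTCNNNGAA for STAT, TTGCNNAA for C/EBP, GGANTTTCC for NF-kB and GAAANNGAA for IRF factors.
C3, chr17:57228087-57228386, minus strand: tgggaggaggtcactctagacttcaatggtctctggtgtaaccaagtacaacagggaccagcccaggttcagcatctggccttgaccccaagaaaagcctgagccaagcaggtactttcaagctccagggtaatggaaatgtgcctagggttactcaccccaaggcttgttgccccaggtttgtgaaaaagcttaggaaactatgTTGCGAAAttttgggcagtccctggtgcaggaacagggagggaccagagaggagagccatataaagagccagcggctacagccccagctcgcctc
Cd55, chr1:130462695-130462994, minus strand: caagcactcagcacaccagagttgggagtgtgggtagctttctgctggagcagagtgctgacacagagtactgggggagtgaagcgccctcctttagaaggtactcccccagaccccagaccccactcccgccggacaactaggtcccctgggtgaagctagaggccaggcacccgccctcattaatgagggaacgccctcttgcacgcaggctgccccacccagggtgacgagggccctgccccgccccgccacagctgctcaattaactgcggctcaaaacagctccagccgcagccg
Cd59a, chr2:104095551-104095850, plus strand: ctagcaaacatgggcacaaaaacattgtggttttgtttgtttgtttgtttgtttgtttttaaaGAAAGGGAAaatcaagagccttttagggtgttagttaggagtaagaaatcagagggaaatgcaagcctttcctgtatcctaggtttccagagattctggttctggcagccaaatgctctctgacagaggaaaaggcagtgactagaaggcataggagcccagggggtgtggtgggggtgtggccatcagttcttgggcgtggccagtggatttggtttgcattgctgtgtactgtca

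C3 held a C/EBP match, TTGCGAAA, whose first base lies 45 bases before the start, Cd59a held an IRF match, GAAAGGGAA, 187 bases before it, and Cd55 held none of the 4 motifs. None of the 3 windows held the STAT motif. C1ra held a STAT match, TTCCCTGAA, and a C/EBP match on the other strand, printed as TTATGCAA on its own strand, both after the start, and C1s1 held a C/EBP match on the other strand, TTAGGCAA, in the window of 1 of its 2 starts. Over all 32851 promoters of the table, 8.30% held the STAT, 10.8% the C/EBP, 1.25% the NF-kB and 8.56% the IRF motif. A match describes the letters of the window and does not show binding, and a window without a match says nothing of the factor.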

How the data were processed

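According to the submitters' processing notes, alignment to mm10 used STAR 2.7.7a and counting per gene used featureCounts 1.6.5. Only reads with a single alignment within a single gene entered the counts. The deposited values are scores on a normalized count scale, rounded to whole numbers by the authors, and the normalization is not given in the sources used here. Tests used limma 3.58.1 in R 4.3.3 (lmFit, contrasts.fit and eBayes with a trend) on log2(normalized count + 1), with all 12 libraries in a single fit and 13184 genes with at least 10 in at least 3 libraries. Genes were called when the p of the two-sided test, adjusted after Benjamini and Hochberg, was under 0.05, whatever the fold. Fold changes on this scale understate changes of low genes. The test was checked on simulated data with residuals drawn independently. That check could not show what the small share of variance held by replicate number does to the p-values.

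Exon lengths and overlaps came from GENCODE M21, in which all 7 genes had the positions of the table, and of 22915 identifiers 22876 were found there. Named genes were the 8 members, each gene of the complement lists that passed the filter, the 3 acute phase genes with the largest called changes per cytokine, and the nearest 3 patterns of members past the F test. The members and lists were chosen with earlier results of these data known. The lists do not hold every complement gene. Alternatives were pseudocounts of 0.1 and 5, no filter, a filter at 50, median-of-ratios and quantile rescaling, a robust fit, the 6 libraries compared, a replicate block, a minimum of 1.5-fold and each library left out.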

Additional observations from a re-analysis of the deposited data

Results flagged for a closer look

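For Serpina3n, the step from mOSM to hlOSM differed from the step from PBS to mLIF by −2.23 on the log2 scale (SE 0.330, limma adjusted p = 0.00293). Its values with mOSM and hlOSM overlapped, while each mLIF library lay above each PBS library. With a robust fit the adjusted p was 0.164. No gene among the 7 complement genes had such a call.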

How the results depend on the processing

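Cd55 with mOSM and with hlOSM kept direction and call under every alternative run, and C3 with hlOSM under each except a minimum of 1.5-fold. Values of the 7 genes for each cytokine against PBS and of Cd55 for hlOSM against mLIF were recomputed, the minimum fold left aside. Of 450 such values, 435 kept direction and side of the threshold, 6 lost a call and 5 gained one. Another 4 turned direction, all in genes that were not called. Most of the 22 values recomputed were not called to begin with. Leaving out a library of a group not compared cannot move a log2 fold change, so the 435 does not measure robustness. The number of called members with mOSM was 3 with quantile normalization, beside 2009 higher and 2183 lower of all 13184 genes. It was 1 to 2 with a library left out, beside 1711 to 2115 higher and 1486 to 2297 lower genes. With hlOSM it was 1, Cd55, at a minimum of 1.5-fold, beside 921 higher and 1030 lower of all genes. In a fit of the libraries compared it was 2, beside 2218 higher and 2552 lower. With a library left out it was 2 to 3, beside 1801 to 2515 higher and 1948 to 2785 lower. For mOSM against mLIF it was 0 to 1 with a library left out, beside 555 to 886 higher and 531 to 844 lower of all genes. For hlOSM against mLIF it was 0 to 1 with a library left out, beside 672 to 1052 higher and 857 to 1313 lower. At a minimum of 1.5-fold it was 0 for hlOSM against mLIF, beside 401 higher and 493 lower. With a library left out, the log2 fold change of C4b with mLIF ran from −0.20 to 0.25. That of C1ra with mOSM ran from −0.0905 to 0.20, and that of Serping1 with mOSM from −0.43 to 0.11. The cause was not tested. The 450 values include those of C4b against PBS, and 2 of the 4 that turned direction were of C4b with mLIF. C4b passed the filter through cytokine libraries alone, so no conclusion rests on its values here. A filter at 50 left 3 of the 7 genes.

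Correlations between deviations of same-numbered libraries, 18 in all, ran from −0.41 to −0.15; the small share of variance held by replicate number fixes this sign, so they do not show whether these libraries were related. With the replicate number as a block, 1 member was called with mOSM and 3 with hlOSM, as without it, with adjusted p of 0.00613 and 0.00122 for Cd55, 0.0110 for C3 and 0.0479 for Cd59a. Among all genes tested, the replicate block left 447 higher and 337 lower with mLIF in place of 721 and 586. It left 1648 and 1682 with mOSM in place of 2031 and 2089, and 1942 and 2178 with hlOSM in place of 2393 and 2609. Of the calls of other complement genes, those of Colec12 against mLIF, Cd46 and Itgam were lost with the block. Low values limit C4b, C1ra and C1s1, whose intervals span rises and falls.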
